A study of Schmidtea mediterranea with 36 samples.

Results

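Transcript levels of X2 cells and Xins cells were compared in planarians starved for 30 days (30dS). The animals were of the asexual strain of Schmidtea mediterranea, fed on veal liver before food was withdrawn. The 8 libraries comprised all 4 X2 and all 4 Xins libraries of that time point, out of 36 libraries in the series, which also held X1 cells and planarians starved for 1 and 7 days (1dS and 7dS). Cells were dissociated with papain and sorted by FACS on the nuclear dye Hoechst and the cytoplasmic dye calcein-AM, and dead cells were excluded with propidium iodide. No genotype or drug distinguished the groups, and no marker gene was used in the sort, so each population is a mixture of cell types that share a gate. In such bulk samples a smaller number of cells of a type and less RNA per cell cannot be told apart.

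Planarian stem cells, or neoblasts, are the only dividing somatic cells of the animal and give rise to all of its cell types. The X2 gate holds stem cells in G0/G1 together with their post-mitotic progeny, the Xins gate holds differentiated cells that survive irradiation, and the X1 gate holds stem cells that replicate DNA or approach mitosis (S and G2/M). Dividing and differentiating cells make much protein, and newly made chains are folded by chaperones. These include TRiC (also called CCT), a ring-shaped cytosolic chaperonin that folds actin and tubulin, the HSP70 and HSP90 families, and the chaperones of the endoplasmic reticulum (ER), which are induced by the unfolded protein response (UPR).

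Levels were TPM (a relative abundance corrected for transcript length), rescaled here to a total of 1000000 in each library. Of 26558 transcripts, 17136 had a mean of at least 1 TPM over the 8 libraries and were tested, and 9422 were below it. As deposited, libraries summed to between 654511 and 1461959. Libraries correlated within X2 at r = 0.92 to 0.983 and within Xins at 0.862 to 0.981, and no X2 library correlated with a Xins library above 0.793. Xins replicate 4 stood apart from the other Xins libraries. The median SD of the log2 levels over 4 replicates was 0.44 in X2 and 0.54 in Xins. Replicates with the same number deviated together in the 2 populations, so a test with the replicate number as a block is given beside the main test at 30dS where it changed a call. Whether same-numbered X2 and Xins samples came from the same planarians is not stated, so the p-values describe how far these samples scatter, which may in part be technical.

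More transcripts were higher in Xins than in X2. With limma on log2(TPM + 1) and a Benjamini-Hochberg q under 0.01, 5782 transcripts differed (33.7% of those tested). Of these, 1572 were higher in X2 (9.17%) and 4210 were higher in Xins (24.6%), so 27.2% of the calls were in the direction of X2. The ranges of the 4 X2 and 4 Xins libraries did not overlap for 2089 transcripts with X2 above (12.2%) and for 5101 with Xins above (29.8%). With the replicate block 9982 transcripts differed (58.3%), of which 3248 transcripts were higher in X2 (19%) and 6734 were higher in Xins (39.3%). Without replicate 1 of both populations the numbers were 630 and 2364, and without replicate 2 of both they were 657 and 2036. Without Xins replicate 4 they were 1771 and 4032.

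The balance of the 2 directions depended on the scaling. The median log2 difference, X2 minus Xins, over all tested transcripts was -0.31 with each library at the same total, and 38.3% of the differences were positive. It was -0.42 with the libraries as deposited, 0.01 with median-of-ratios scaling and 0.20 after quantile normalization. The share of calls in the direction of X2 was 22.1%, 38.4% and 50.2% in these settings (1638, 2651 and 3941 calls higher in X2 beside 5771, 4260 and 3909 higher in Xins). Differences below are on the scale of equal totals and can be read against the median of -0.31.

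On the scale of equal totals, the called differences reached farther toward Xins. The median log2 difference was -2.13 among the calls higher in Xins and 1.58 among those higher in X2. Read against the median of all tested transcripts, -0.31, the call medians did not lie farther toward Xins. A difference of at least 1 on the log2 scale was seen in 4041 of the former and 1369 of the latter. Transcripts nearly restricted to one population were more numerous in Xins, as were the calls as a whole. Of the 4210 calls higher in Xins, 613 had a mean under 1 TPM in X2 and of at least 5 TPM in Xins. Of the 1572 calls higher in X2, 164 had the opposite pattern. The calls included 15 transcripts listed at 0 in all 4 X2 libraries and 6 listed at 0 in all 4 Xins libraries. All these transcripts passed the filter on the mean only through the population in which they were high.

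The share of calls in each direction varied with the level of the transcript. Among the 5943 transcripts with a mean of 1 to 5 TPM, 5.47% were higher in X2 and 16.5% were higher in Xins. Among the 302 transcripts of at least 500 TPM, 37.7% were higher in X2 and 36.8% were higher in Xins. The median difference was -0.25 in the former bin and 0.40 in the latter.

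**Figure D1:**
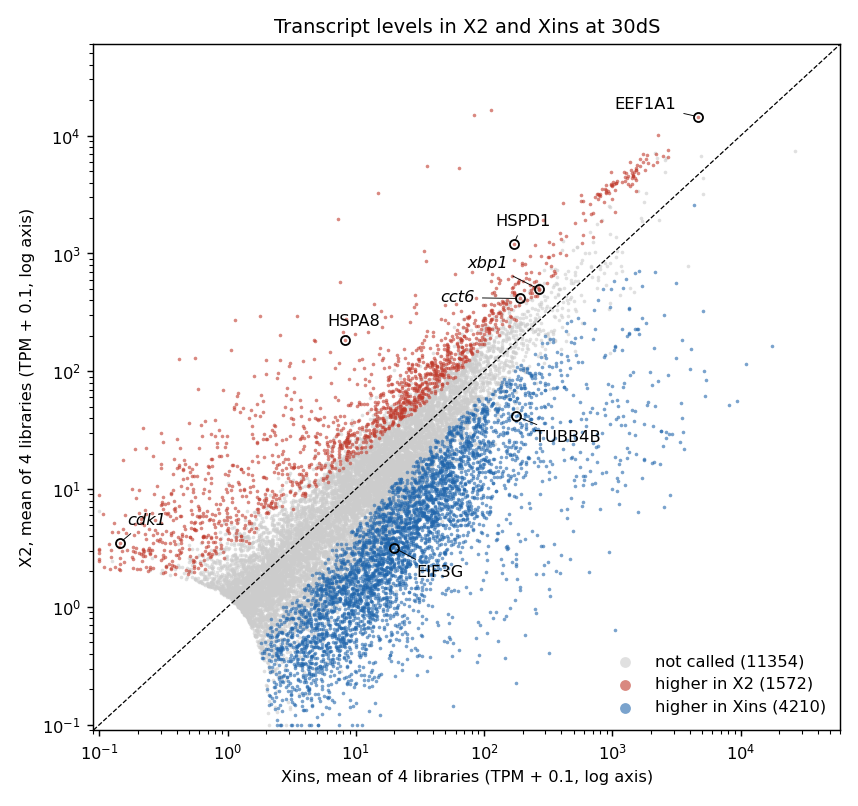
Mean level of each of the 17136 tested transcripts in Xins (x axis) and X2 (y axis), in TPM + 0.1 on log axes, over 4 libraries each. Red points are the 1572 transcripts called higher in X2 and blue points the 4210 called higher in Xins. At equal totals of the libraries, the blue cloud below the diagonal is the larger and reaches farther from it. The diagonal marks equal levels and not the median difference of -0.31.

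The 2 largest differences in each direction came from transcripts without a gene symbol in the sources used here. The transcript dresden_comp332_c0_seq1 held 1852, 2275, 1241 and 2421 TPM in the X2 libraries and 4.37, 10.5, 8.01 and 5.94 TPM in the Xins libraries, a log2 difference of 7.90. A second one, dresden_comp478_c0_seq1, held 2986 to 3626 TPM in X2 and 7.15 to 20.7 TPM in Xins, a log2 difference of 7.78. The X1 means of both were far below those of X2, at 49.4 and 67.7 TPM.

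In the direction of Xins, dresden_comp9673_c0_seq1 held 452 to 1638 TPM in the Xins libraries and 0.0796 to 1.42 TPM in the X2 libraries, a log2 difference of -9.32. The transcript dresden_comp1588_c0_seq1 held 1860 to 3284 TPM in Xins and 4.45 to 8.07 TPM in X2, a log2 difference of -8.29. These 4 transcripts were picked among calls with a mean of at least 10 TPM and no overlap between the populations. Their separation was thus set by the choice. The calls held in all 23 alternative settings.

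X1 levels at 30dS were set beside these calls as a description. Each of the 3 populations was normalized by the authors in a table of its own, so levels in X1, X2 and Xins, and the test of X2 against Xins, are compared here across separately normalized tables after rescaling to equal totals. Of the 1572 transcripts higher in X2, 917 (58.3%) had their highest mean of the 3 populations in X1, 514 (32.7%) had an X1 mean between those of X2 and Xins, and 141 (8.97%) had their lowest mean in X1. The medians of these transcripts were 49.3 TPM in X1, 45.1 TPM in X2 and 13.2 TPM in Xins. Of the 4210 transcripts higher in Xins, 3823 (90.8%) had their lowest mean in X1, and their medians were 0.81, 3.34 and 22.4 TPM in X1, X2 and Xins. The median of X2 thus lay near that of X1 in the former set, and between those of X1 and Xins in the latter.

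The 2 marker transcripts identified in the sources used here were examined in the sorted populations. The transcript of cdk1, a cyclin-dependent kinase of mitosis, held 3.86, 3.43, 2.37 and 3.96 TPM in the X2 libraries and 0.0392, 0.0442, 0.0960 and 0 TPM in the Xins libraries. Every X2 library was above every Xins library (log2 difference 2.06 ± 0.23 SE, q = 7.1e-05). In X1 its mean was 51.1 ± 10.3 TPM (SD, n = 4), so X2 stood between X1 and Xins and far nearer to Xins on the linear scale. The call held in the 22 alternative settings in which the transcript was tested. The transcript passed the filter on the mean only through X2, so its call is no independent check of the sort.

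The transcript of bt (bent), a giant muscle protein of the titin family, held 10.8, 3.41, 6.72 and 17.6 TPM in X2 and 10.2, 12.8, 5.24 and 50.6 TPM in Xins. The ranges overlapped, replicate 4 was the highest in both populations, and no difference was called (log2 difference -0.68 ± 0.65 SE, q = 0.45). In X1 the mean was 0.212 ± 0.159 TPM (SD, n = 4). The muscle marker was therefore detected in all 4 libraries of the X2 gate. Markers of epidermal progeny, neurons, intestine and ciliated cells were not matched to transcripts here.

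Lists of chaperones, UPR factors, translation factors and other groups were then examined, 230 transcripts in all, of which 211 were tested. The lists were taken from the study, which had picked most of them from transcripts that changed with starvation in X1 or after cct3A RNAi, so they are not independent evidence of any direction. Of the 211, 48 were higher in X2 (9.17% of all transcripts were) and 18 were higher in Xins (24.6% of all), and the median difference was 0.63 beside -0.31 for all transcripts. With the block, 120 were higher in X2 and 28 were higher in Xins, beside 19% and 39.3% of all transcripts. X2 was above Xins in all 4 same-numbered pairs for 140 of the 211 (66.4%), against 26% of all tested transcripts. Leaving out replicate 1 or 2 of both populations left 14 and 16 members higher in X2, and leaving out X2 replicate 1, X2 replicate 2 or Xins replicate 1 left 30 each. Without replicate 2 of both populations, 8 members were higher in Xins. List members had a median level of 60.6 TPM in X2 and 42.8 TPM in Xins, against 6.48 and 11.6 TPM for all tested transcripts. Among all transcripts the share higher in X2 rose with level, to 12.6% at 20 to 100 TPM and 23.5% at 100 to 500 TPM. The shares of all transcripts given beside each list are not matched for level.

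**Figure D2:**
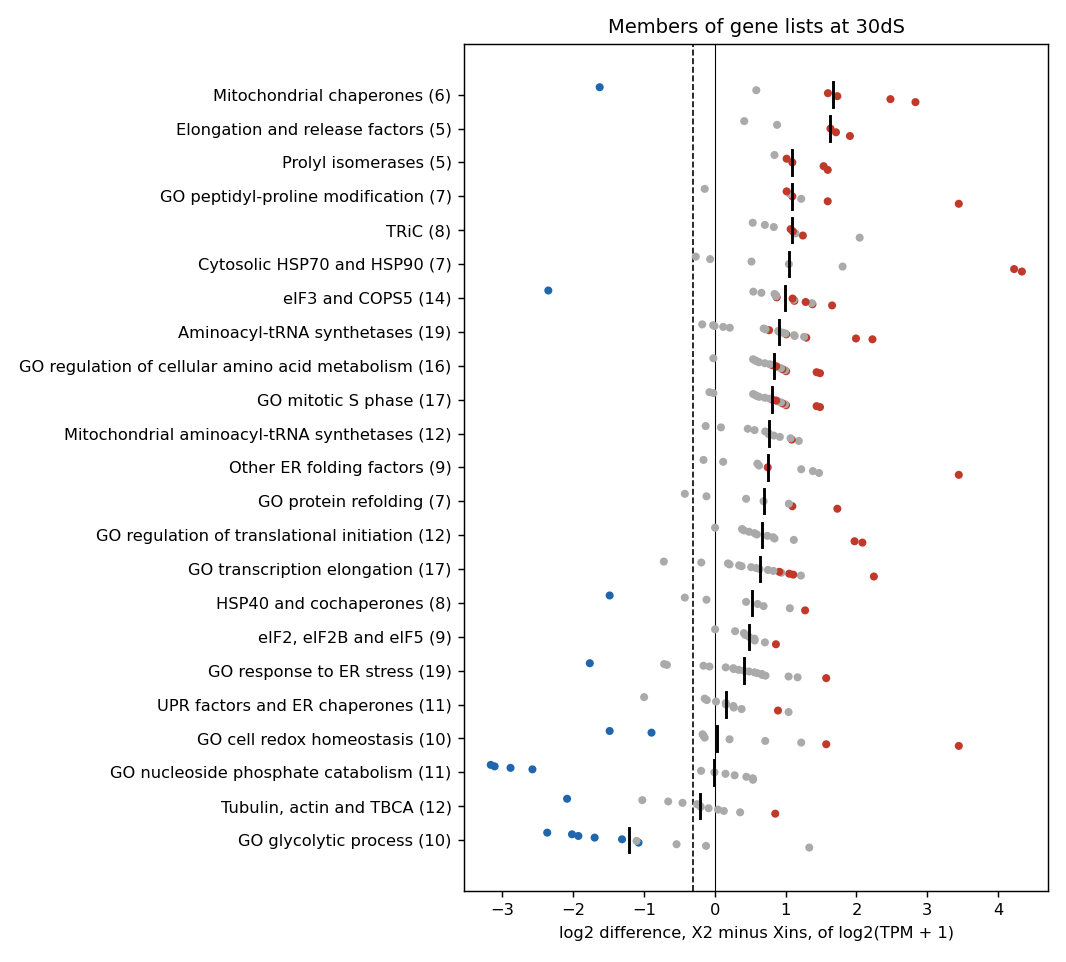
Log2 difference, X2 minus Xins, at 30dS of each tested member of the lists with at least 5 tested members (number in parentheses). Red points are members called higher in X2, blue points members called higher in Xins and grey points members not called; black ticks are list medians, and the dashed line is the median of all transcripts at -0.31, which lies to the left of all list medians except that of glycolysis.

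TRiC transcripts were higher in X2 in every same-numbered pair. The complex has 8 subunits, each encoded by a gene of its own, and all 8 were tested. Of these, cct2, cct6 and cct8A were higher in X2 and none was higher in Xins (9.17% and 24.6% of all transcripts). Among all transcripts of 100 to 500 TPM, the level of these subunits, 23.5% were higher in X2 and 30.1% in Xins. The median log2 difference of the 8 subunits was 1.09. With the block all 8 were higher in X2 (19% of all transcripts). For all 8 subunits X2 was above Xins in all 4 pairs, a pattern seen in 26% of all transcripts.

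The level of cct8A was 416, 357, 197 and 391 TPM in the X2 libraries and 132, 154, 101 and 174 TPM in the Xins libraries. The lowest X2 library, replicate 3, was above the highest Xins library (log2 difference 1.24 ± 0.27 SE, q = 0.0046). Levels of cct6 were 479, 452, 322 and 405 TPM in X2 and 194, 204, 179 and 186 TPM in Xins, 2.17-fold higher in X2 (q = 0.00055). Those of cct2 were 337, 293, 183 and 334 TPM in X2 and 116, 154, 102 and 169 TPM in Xins, 2.13-fold higher in X2 (q = 0.0065). The ranges of these 3 subunits did not overlap.

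The largest difference in the complex was that of cct1A, which nevertheless missed the threshold. Its level was 332, 248, 101 and 423 TPM in X2 and 47.7, 68.8, 26.9 and 130 TPM in Xins, so that X2 replicate 3 was below Xins replicate 4 (log2 difference 2.05 ± 0.54 SE, q = 0.011, and 8.8e-07 with the block). Within pairs, X2 exceeded Xins each time. The subunit with the smallest difference was cct5, at 499, 505, 217 and 509 TPM in X2 and 262, 347, 175 and 394 TPM in Xins (log2 difference 0.54 ± 0.35 SE, q = 0.25, and 0.002 with the block). Of the remaining subunits, cct3A, cct4B and cct7 differed by 1.14, 0.83 and 0.71 and passed the threshold with the block only.

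Summed over its 8 subunits, TRiC amounted to 2524 ± 750 TPM in X2 and 1222 ± 334 TPM in Xins (SD, n = 4). The sum in X1 was 2746 ± 530 TPM. The X1 mean was above the X2 mean for 7 of the 8 subunits, and for 4442 of all 17136 tested transcripts. Replicate 3 had the lowest sum in each population, at 1440 TPM in X2 and 829 TPM in Xins, and replicate 4 the highest in both, at 3043 and 1614 TPM. As deposited, before rescaling, replicate 3 had the largest total in each population (1226626 in X2 and 1461959 in Xins). Replicate 4 had the smallest (674755 and 654511). How far the order of the TRiC sums follows from the rescaling was not tested.

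The number of TRiC calls was sensitive to single libraries. Leaving out X2 replicate 1, 2 or 4 or Xins replicate 1, 2 or 3 left only 1 subunit higher in X2, and leaving out replicate 1 or replicate 2 of both populations left 0, whereas 6 were higher in X2 without X2 replicate 3. In those single-library settings the q of cct8A was 0.0109 to 0.017 and that of cct2 was 0.0133 to 0.0232. The call of cct6 was lost with the libraries as deposited (q = 0.015) and without replicate 1 or 2 of both populations (q = 0.011 and 0.012). The list median stayed positive under every scaling, at 0.96 as deposited, 1.47 with median-of-ratios scaling and 1.41 after quantile normalization.

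**Figure D3:**
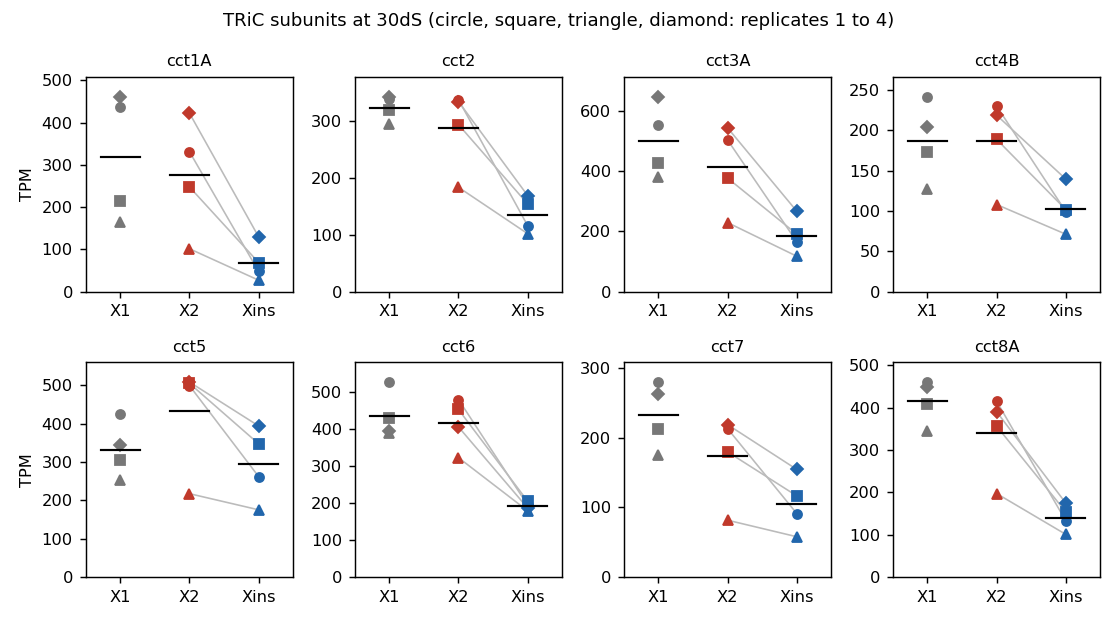
Level in TPM of each of the 8 TRiC subunits at 30dS in X1, X2 and Xins. Symbols mark replicates 1 to 4, bars are means, and grey lines join X2 and Xins libraries of the same number; each of the lines falls from X2 to Xins, and the triangle (replicate 3) is the lowest X2 library of each subunit.

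Cytosolic HSP70 proteins bind unfolded stretches of protein, and HSP90 acts later on a narrower set of clients. Of 7 tested transcripts of this group, 2 were higher in X2 and none was higher in Xins (9.17% and 24.6% of all transcripts). Both were annotated as HSPA8, the constitutive HSP70, and they showed the largest differences on the log2(TPM + 1) scale of all tested transcripts with a symbol. By the ratio of means, cdk1 and P4HB, both of lower level, differed by more. HSPA8 (dresden_comp1332_c0_seq1) held 242, 158, 84.4 and 252 TPM in X2 and 6.81, 11.2, 3.34 and 11.2 TPM in Xins, 22.6-fold higher in X2 (log2 difference 4.33 ± 0.43 SE, q = 4.2e-05). HSPA8 (dresden_comp1459_c0_seq1) held 425, 266, 134 and 471 TPM in X2 and 14.6, 14.9, 8.49 and 24.1 TPM in Xins, 20.8-fold higher in X2. Both calls held in all 23 alternative settings.

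Other transcripts with the same annotation did not follow. HSPA8 (dresden_comp320_c0_seq1) held 329 ± 172 TPM in X2 and 372 ± 288 TPM in Xins (SD, n = 4), a log2 difference of -0.06 (q = 0.95). HSPA8 (dresden_comp2221_c0_seq1) held 28 ± 12.3 and 20.6 ± 13.7 TPM (log2 difference 0.52, q = 0.47). Reads may be shared among near-identical copies, so the split between HSPA8 transcripts is uncertain. The 2 HSP90AA1 transcripts were 3.08-fold and 1.73-fold higher in X2 in the mean, with log2 differences of 1.80 (q = 0.029) and 1.05 (q = 0.21). With the block both passed the threshold. All 7 transcripts of the group had a higher mean in X1 than in X2, as had 4442 of all 17136 tested transcripts.

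Mitochondrial chaperones were among the groups with the largest differences. Of 6 transcripts in the list, 4 were higher in X2 and 1 was higher in Xins (9.17% and 24.6% of all transcripts). The median log2 difference was 1.66. HSPD1 (dresden_comp141_c0_seq1), the HSP60 of the mitochondrial matrix, held 1533, 1149, 542 and 1605 TPM in X2 and 140, 173, 84.0 and 286 TPM in Xins, 7.08-fold higher in X2 (log2 difference 2.83 ± 0.43 SE, q = 0.00054). HSPA9, the mitochondrial HSP70, held 678, 448, 206 and 1021 TPM in X2 and 68.7, 104, 36.5 and 242 TPM in Xins. Its ranges overlapped, since X2 replicate 3 was below Xins replicate 4, and the difference of 2.48 was called (q = 0.0086). TRAP1, the mitochondrial HSP90, was 3.06-fold higher in X2, at 223 ± 75 against 73 ± 26.4 TPM (SD, n = 4, q = 0.0036). A second HSPD1 transcript (dresden_comp6294_c0_seq1) was lower in abundance, at 12.3 ± 6.04 TPM in X2 and 2.86 ± 1.53 TPM in Xins (SD, n = 4, q = 0.0092). Leaving out X2 replicate 1, 2 or 4 or Xins replicate 1 or 2 left 1 member higher in X2, and leaving out Xins replicate 3 left 2. In these settings the q of HSPA9 was 0.017 to 0.0281 and that of the second HSPD1 transcript was 0.0205 to 0.0319. Without replicate 1 of both populations 0 members were higher in X2 (q = 0.0106 for the abundant HSPD1 transcript), and without replicate 2 of both 1 was.

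The transcript of this list that was higher in Xins was DNAJC27, annotated as a DnaJ-domain protein, which alone does not place it in mitochondria. It held 11.1, 7.88, 11.9 and 10.9 TPM in X2 and 25.5, 40.0, 28.4 and 45.4 TPM in Xins, 3.34-fold higher in Xins (log2 difference -1.62 ± 0.25 SE, q = 0.00052). Every Xins library was above every X2 library. Its mean in X1 was 0.690 TPM. The call was lost without replicate 2 of both populations (q = 0.014).

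HSP40 proteins, which carry a DnaJ domain, hand clients to HSP70 and stimulate its ATPase. With the block 4 of 8 HSP40 and cochaperone transcripts were higher in X2 and 1 in Xins (19% and 39.3% of all transcripts). Without it 1 was higher in X2 and 1 was higher in Xins (9.17% and 24.6% of all transcripts). The former was CHORDC1, a cochaperone of HSP90, at 289, 276, 298 and 255 TPM in X2 and 120, 111, 134 and 96.6 TPM in Xins (2.42-fold, q = 0.00015). The latter was annotated as LOC100863952 (dresden_comp5863_c0_seq1), a DnaJ homolog of subfamily C, at 23.0, 15.6, 11.7 and 23.7 TPM in X2 and 55.6, 51.0, 38.7 and 63.9 TPM in Xins (2.83-fold higher in Xins, q = 0.0015). Neither pair of ranges overlapped. The call of CHORDC1 was lost with the libraries as deposited (q = 0.0235), and that of LOC100863952 without replicate 1 or 2 of both populations (q = 0.0131 and 0.0243). The most abundant member, DNAJA4, was 1.54-fold higher in X2 in the mean and was called with the block only (q = 0.22, and 0.0021 with the block).

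Prolyl isomerases speed the turn of proline bonds during folding. Of 5 tested transcripts, 4 were higher in X2 and none was higher in Xins (9.17% and 24.6% of all transcripts). All 5 were higher in X2 in all 4 pairs, a pattern seen in 26% of all transcripts. PPIH, a cyclophilin of the spliceosome, held 119, 121, 109 and 110 TPM in X2 and 38.8, 41.5, 39.8 and 35.6 TPM in Xins, 2.95-fold higher in X2 (log2 difference 1.54 ± 0.15 SE, q = 3.3e-05). PPIB, the cyclophilin of the ER, held 301, 352, 233 and 447 TPM in X2 and 76.5, 115, 77.1 and 190 TPM in Xins, 2.91-fold higher in X2 (q = 0.0028). FKBP1B was 2.14-fold higher in X2, at 513 ± 33.7 against 240 ± 20.7 TPM (SD, n = 4, q = 0.00022). The spread between replicates was small for PPIH and FKBP1B and the 4 libraries of each population lay close together. The call of PPIB was lost without X2 replicate 2 (q = 0.0109) and without Xins replicate 1 (q = 0.0108). That of FKBP1B was lost with the libraries as deposited (q = 0.0386) and with median-of-ratios scaling (q = 0.0142). Without replicate 1 or 2 of both populations, 2 of the 5 were higher in X2.

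Of 13 UPR factors and ER chaperones, 11 were tested. Only xbp1 was higher in X2 and none was higher in Xins, 1 call in 11 beside 9.17% and 24.6% of all transcripts, and the median log2 difference was 0.16. X2 was above Xins in all 4 pairs for 3 of the 11 (27.3%), beside 26% of all transcripts. The median was 0.03 as deposited, 0.53 with median-of-ratios scaling and 0.57 after quantile normalization.

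The transcript of xbp1, a transcription factor whose mRNA is spliced by the ER stress sensor IRE1, held 519, 469, 392.3 and 599 TPM in X2 and 198, 302, 227 and 354 TPM in Xins. The ranges did not overlap, and X2 was 1.83-fold higher (log2 difference 0.89 ± 0.23 SE, q = 0.0094, and 9.5e-05 with the block). In X1 the mean was 79 ± 29.4 TPM (SD, n = 4), below both. The call lay close to the threshold and was lost in 13 of the 23 alternative settings. These included the libraries as deposited (q = 0.0198) and leaving out X2 replicate 1, 2 or 4 (q = 0.0293, 0.0254 and 0.0268) or Xins replicate 1, 2 or 3 (q = 0.0298, 0.0182 and 0.0236).

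The transcript of bip-2, of the ER HSP70 family, held 91.3, 66.9, 30.3 and 89.3 TPM in X2 and 27.0, 36.8, 17.6 and 49.0 TPM in Xins. X2 was above Xins in each pair, and the difference of 1.04 was called with the block only (q = 0.064, and 0.00017 with the block). That of bip-1 held 342, 244, 124 and 396 TPM in X2 and 159, 224, 107 and 519 TPM in Xins. Here X2 was above Xins in 3 of the 4 pairs and the ranges overlapped (log2 difference 0.26 ± 0.51 SE, q = 0.73). Both bip-3 transcripts were below the filter, at means of 0.122 and 0.1 TPM in X2 and 0.811 and 0.566 TPM in Xins, with all Xins libraries above all X2 libraries.

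The transcript of pdia13, of the protein disulfide isomerase family, lay in the opposite direction. It held 32.8, 24.3, 17.8 and 33.9 TPM in X2 and 49.8, 56.4, 37.9 and 77.6 TPM in Xins (log2 difference -1.0 ± 0.28 SE, q = 0.016, and 5.4e-05 with the block). All Xins libraries were above all X2 libraries. The transcription factor atf6, which is cleaved on ER stress, held 55.2 ± 24.5 TPM in X2 and 42.6 ± 22.4 TPM in Xins (SD, n = 4, q = 0.55). The ER cochaperones dnajb11, dnajb9 and dnajc3 differed by 0.27, 0.16 and 0.16, with q of 0.65, 0.68 and 0.86. Those of pdia3, pdia12 and calr, the lectin chaperone calreticulin, differed by 0.02, -0.11 and -0.14, with q of 0.98, 0.67 and 0.84. None of these 7 transcripts was called with the block, and the sign for pdia3, pdia12 and calr turned in other scalings. For all 11 tested transcripts the X1 mean was below the X2 mean. Of all 17136 tested transcripts, only 4442 had an X1 mean above the X2 mean.

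Other folding factors of the ER were examined as a list of their own. Of 9 tested, 2 were higher in X2 and none was higher in Xins (9.17% and 24.6% of all transcripts). The median difference was 0.75, and 6 were higher in X2 with the block (19% of all transcripts). P4HB (dresden_comp13521_c0_seq1), the disulfide isomerase subunit of prolyl 4-hydroxylase, held 20.4, 15.4, 9.03 and 27.3 TPM in X2 and 0.622, 0.627, 0.390 and 0.943 TPM in Xins, 28-fold higher in X2 (log2 difference 3.44 ± 0.34 SE, q = 3.8e-05). It was also low in X1, at 1.89 TPM. MLEC, the ER lectin malectin, held 106, 108, 85.3 and 110 TPM in X2 and 59.0, 65.9, 53.3 and 63.5 TPM in Xins (1.69-fold, q = 0.0043). The call of P4HB held in all 23 alternative settings, but the transcript passed the filter on the mean only through X2. That of MLEC was lost in 12, among them without X2 replicate 1, 2 or 4 (q = 0.0134 to 0.0184) and without Xins replicate 1, 2 or 3 (q = 0.0118 to 0.0165), which left 1 call in the list. The X1 mean was below the X2 mean for all 9, as it was for the UPR factors. It was above the X2 mean for only 4442 of all 17136 tested transcripts.

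Translation factors that differed were mostly higher in X2. Elongation factors bring tRNAs to the ribosome. Of 5 tested elongation and release factors, 3 were higher in X2 and none was higher in Xins (9.17% and 24.6% of all transcripts). The most abundant was EEF1A1 (dresden_comp30_c0_seq1), which delivers tRNAs, at 16003, 16129, 11775 and 14053 TPM in X2 and 4547, 5154, 4613 and 4267 TPM in Xins. X2 was 3.12-fold higher (log2 difference 1.63 ± 0.18 SE, q = 8.3e-05). EEF1G and EEF1B2, subunits of the complex that recharges it with GTP, were 3.71-fold and 3.21-fold higher in X2, at 2187 ± 326 against 589 ± 138 TPM and 2758 ± 524 against 860 ± 259 TPM (SD, n = 4). All 5 transcripts were higher in X2 in all 4 pairs, a pattern seen in 26% of all transcripts. The 3 called factors were above 500 TPM in the mean of the 8 libraries. Of all transcripts of at least 500 TPM, 37.7% were higher in X2 and 36.8% in Xins. The list summed to 19550 ± 1773 TPM in X2, 6162 ± 658 TPM in Xins and 21905 ± 1471 TPM in X1 (SD, n = 4). The calls of EEF1A1 and EEF1B2 were lost with the libraries as deposited (q = 0.0218 and 0.0257) and with median-of-ratios scaling (q = 0.0116 and 0.0122), and 1 of the 5 remained called as deposited.

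The eIF3 complex keeps the small ribosomal subunit ready for mRNA. Of 14 tested eIF3 transcripts and COPS5, 6 were higher in X2 and 1 was higher in Xins (9.17% and 24.6% of all transcripts). The median difference was 0.99. With the block 13 were higher in X2 (19% of all transcripts). EIF3K held 660, 727, 780 and 588 TPM in X2 and 259, 301, 337 and 181 TPM in Xins, 2.55-fold higher in X2 (log2 difference 1.38 ± 0.22 SE, q = 0.00064). EIF3I was 2.2-fold higher in X2, at 274 ± 45.1 against 124 ± 14.9 TPM (SD, n = 4, q = 0.0007).

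The 2 transcripts annotated as EIF3G went in opposite directions. EIF3G (dresden_comp5500_c0_seq1) held 94.1, 81.8, 64.1 and 110 TPM in X2 and 21.5, 30.1, 20.1 and 37.9 TPM in Xins, 3.19-fold higher in X2 (q = 0.00058). EIF3G (dresden_comp15937_c0_seq1) held 3.69, 2.47, 2.0 and 4.12 TPM in X2 and 19.3, 19.7, 13.3 and 26.9 TPM in Xins, 6.45-fold higher in Xins (log2 difference -2.35 ± 0.29 SE, q = 0.00015). Neither pair of ranges overlapped. The latter was the symbol-bearing transcript with the largest log2 difference toward Xins, and its call held in all 23 alternative settings. The call of EIF3K was lost with the libraries as deposited (q = 0.0401) and with median-of-ratios scaling (q = 0.0168). Without replicate 1 of both populations 0 members of the list were higher in X2, and without replicate 2 of both 1 was.

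Of 9 tested transcripts of eIF2, eIF2B and eIF5, which bring the initiator tRNA to the ribosome and recycle its GTP, 1 was higher in X2 and none was higher in Xins, with a median of 0.48, and 6 were higher in X2 with the block (9.17% of all transcripts were higher in X2, and 19% with the block). The called member was EIF2B2, a subunit of the exchange factor, at 31 ± 1.29 TPM in X2 and 16.6 ± 1.67 TPM in Xins (SD, n = 4, 1.86-fold, q = 0.0026). It was lost as deposited (q = 0.0396) and without X2 replicate 1 or 2 or Xins replicate 1 or 2 (q = 0.0106 to 0.0128), which left 0 calls. Among the 3 transcripts annotated as DDX3X, an RNA helicase, 1 (dresden_comp2411_c0_seq1) was higher in Xins, at 134 ± 17.5 TPM against 76.2 ± 7.94 TPM in X2 (SD, n = 4, 1.76-fold, q = 0.0032). That call was lost with median-of-ratios scaling (q = 0.409) and after quantile normalization (q = 0.0379), as well as without X2 replicate 2 (q = 0.0146), Xins replicate 1 (q = 0.0148) or Xins replicate 2 (q = 0.0129).

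Aminoacyl-tRNA synthetases load tRNAs with amino acids. Of 19 tested cytosolic synthetases, 5 were higher in X2 and none was higher in Xins (9.17% and 24.6% of all transcripts). The median difference was 0.91, and 14 were higher in X2 with the block (19% of all transcripts). X2 was above Xins in all 4 pairs for 15 of the 19, beside 26% of all transcripts. SARS, for serine, held 68.0, 66.2, 27.1 and 91.0 TPM in X2 and 10, 13.4, 5.52 and 23.2 TPM in Xins, 4.84-fold higher in X2 (log2 difference 2.23 ± 0.46 SE, q = 0.0033). KARS, for lysine, held 115, 101, 45.1 and 157 TPM in X2 and 18.0, 28.2, 13.0 and 43.4 TPM in Xins, 4.08-fold higher in X2 (q = 0.005). MARS, for methionine, held 82.2, 73.6, 67.3 and 66.6 TPM in X2 and 29.2, 31.1, 30.0 and 25.6 TPM in Xins (2.5-fold, q = 0.00017).

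The ranges of these 3 synthetases did not overlap, and the call of MARS held in all 23 alternative settings. That of SARS was lost without X2 replicate 1, X2 replicate 2 or Xins replicate 1 (q = 0.0123 to 0.0127). That of KARS was lost without X2 replicate 1, 2 or 4 or Xins replicate 1, 2 or 3 (q = 0.0109 to 0.0185). The list had 1 call without X2 replicate 1, X2 replicate 2 or Xins replicate 1, and 2 calls without X2 replicate 4, Xins replicate 2 or Xins replicate 3. At the other end, CARS, for cysteine, held 39.1 ± 3.99 TPM in X2 and 39.6 ± 2.58 TPM in Xins (SD, n = 4), a log2 difference of -0.02 ± 0.16 SE.

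Of 12 mitochondrial synthetases, 1 was higher in X2 and none was higher in Xins, with a median difference of 0.76, and 8 were higher in X2 with the block, again beside 9.17% and 19% of all transcripts. Yars2, for tyrosine, held 28, 25.5, 29.2 and 27.5 TPM in X2 and 12.8, 11.5, 13.3 and 12.1 TPM in Xins, 2.21-fold higher in X2 (log2 difference 1.09 ± 0.17 SE, q = 0.00068). It was lost with the libraries as deposited (q = 0.0179) and without replicate 1 or 2 of both populations (q = 0.0154 and 0.0184). Without either number the list had 0 calls, and as deposited it had 4. The X1 mean was above the X2 mean for 10 of the 12 mitochondrial and for 8 of the 19 cytosolic synthetases. The same held for 4442 of all 17136 tested transcripts.

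Tubulin and actin are the main clients of TRiC, and their transcripts did not move together. Of 12 transcripts of tubulin, actin and the tubulin cofactor TBCA, 1 was higher in X2 and 1 was higher in Xins. With the block 1 and 4 were. Of all transcripts 9.17% and 24.6% were, and 19% and 39.3% with the block. The list median was -0.20, and it was 0.18 with median-of-ratios scaling. TUBB4B (dresden_comp640_c0_seq1), a beta-tubulin, held 39.2, 47.5, 46.7 and 32.2 TPM in X2 and 152, 213, 148 and 201 TPM in Xins, 4.32-fold higher in Xins (log2 difference -2.08 ± 0.20 SE, q = 3.5e-05). TUBA1C (dresden_comp1623_c0_seq1), an alpha-tubulin, held 64.1, 47.5, 55.8 and 72.6 TPM in X2 and 31.2, 29.0, 29.9 and 40.4 TPM in Xins, 1.84-fold higher in X2 (q = 0.0061). Neither pair of ranges overlapped. The call of TUBB4B held in all 23 alternative settings. That of TUBA1C was lost in 11, among them as deposited (q = 0.0161), without X2 replicate 1, 3 or 4 (q = 0.0115 to 0.0213) and without Xins replicate 1, 2 or 3 (q = 0.015 to 0.0244).

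The most abundant actin transcript, ACTB (dresden_comp37_c0_seq1), held 4650, 3695, 5685 and 3355 TPM in X2 and 4563, 5481, 5773 and 4521 TPM in Xins. These ranges overlapped (log2 difference -0.25 ± 0.22 SE, q = 0.4), and the difference was 0.13 with median-of-ratios scaling. The 3 most abundant TUBB4B transcripts (dresden_comp152_c0_seq1, dresden_comp83_c0_seq1 and dresden_comp471_c0_seq1) had overlapping ranges as well. Near-identical tubulin and actin copies may share reads. Summed over the 12 transcripts, the list amounted to 10385 ± 819 TPM in X2 and 11720 ± 145 TPM in Xins (SD, n = 4).

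Among the remaining members of the folding list, SH3GLB1, a membrane-curving protein also known as endophilin B1, was higher in Xins. It held 27.3, 23.5, 15.1 and 35.0 TPM in X2 and 96.0, 70.2, 40.5 and 95.6 TPM in Xins, 3-fold higher in Xins (log2 difference -1.53 ± 0.34 SE, q = 0.0046). No Xins library was below the highest X2 library. The call was lost without X2 replicate 1, 2 or 3 (q = 0.0115, 0.0155 and 0.0114) and without Xins replicate 1 or 2 (q = 0.0183 and 0.0146).

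Gene ontology (GO) lists that the study drew from X1 starvation responses were described by count. Their members are mostly without a symbol. Glycolysis, the breakdown of glucose to pyruvate, was the list with the lowest median. Of 10 tested transcripts, none was higher in X2 and 6 were higher in Xins (9.17% and 24.6% of all transcripts), 1 and 8 with the block (19% and 39.3% of all), with a median log2 difference of -1.21. The median was negative under every scaling, between -1.33 as deposited and -0.83 with median-of-ratios scaling, and without replicate 2 of both populations 2 members were higher in Xins. Of 11 tested transcripts of nucleoside phosphate catabolism, 4 were higher in Xins, with log2 differences between -3.16 and -2.57, and none was higher in X2. The other 7 differed by between -0.19 and 0.54 and were not called.

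The mitotic S phase list was in the direction of X2. Of 17 tested, 6 were higher in X2 and none was higher in Xins (9.17% and 24.6% of all transcripts). The median was 0.81, and 15 were higher in X2 with the block (19% of all transcripts). The list of regulation of amino acid metabolism holds 16 of these 17 and had the same 6 calls, so neither label is particular to them. Without replicate 1 or 2 of both populations none of either list was called. Of 17 transcripts of transcription elongation, 4 were higher in X2 and none was higher in Xins (median 0.63), and leaving out X2 replicate 1 or 2 left 2, or 1 when replicate 1 or 2 of both populations was left out. Of 12 transcripts of translational initiation, 2 were higher in X2 and none was higher in Xins (median 0.67).

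The remaining GO lists were mixed or small. Of 19 transcripts of the response to ER stress, 1 was higher in X2 and 1 was higher in Xins (median 0.41). With the block 8 and 3 were. Of all transcripts 9.17% were higher in X2 and 24.6% in Xins, and 19% and 39.3% with the block. Of 10 transcripts of redox homeostasis, 2 were higher in each direction (median 0.03, and -0.05 as deposited), and P4HB and LOC100863952 were among them. Of 7 transcripts of protein refolding, 2 were higher in X2 (median 0.69), and of 7 of peptidyl-proline modification, which shares members with the prolyl isomerases, 4 were (median 1.1). None was higher in Xins in these last lists.

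The comparison of X2 with Xins was also available in planarians starved for 1 and 7 days, with 4 libraries a group. At 1dS 6135 transcripts differed (36.9%), of which 1456 were higher in X2 (8.76% of 16620) and 4679 were higher in Xins (28.2%). At 7dS 6764 differed (38.2%), of which 1471 were higher in X2 (8.32% of 17690) and 5293 were higher in Xins (29.9%). With the block at 7dS, where the numbers also paired the libraries, 12429 differed (70.3%), 3508 of them higher in X2 (19.8%) and 8921 higher in Xins (50.4%). Of the 1572 transcripts higher in X2 at 30dS, 1071 were also called higher in X2 at 1dS (68.1% of the 30dS and 73.6% of the 1dS calls) and 1312 at 7dS (83.5% and 89.2%). Of the 4210 higher in Xins, 3589 were also called so at 1dS (85.2% and 76.7%) and 3987 at 7dS (94.7% and 75.3%). Calls in opposite directions numbered 3 between 30dS and 1dS and 0 between 30dS and 7dS.

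Whether the difference between X2 and Xins itself changed was tested over the 24 libraries of both populations. Against 1dS, 330 of 17270 transcripts (1.91%) had a different X2 minus Xins difference at 30dS (q under 0.1). For 257 of them (1.49%) it had moved toward X2 and for 73 (0.423%) toward Xins. The median difference of the 257 was -2.77 at 1dS and -0.98 at 30dS, and that of the 73 was 1.87 at 1dS and 0.20 at 30dS. Both sets were picked and split by this change, so the direction in which each median moved was set by the choice. In these sets alone, the median differences were smaller in size at 30dS. For 45 of the 257 and 14 of the 73 the difference was larger in size at 30dS. The number that passed depended on the scaling, with 962 for the libraries as deposited, 657 with median-of-ratios scaling and 753 after quantile normalization. Without replicate 1 of both populations at 30dS, 149 transcripts passed, and without replicate 3 of both, 187. Against 7dS no transcript passed (0 of 17270 by limma, with or without an intensity trend), the smallest q was 0.122, and 153 had an unadjusted p under 0.05 (0.886%), beside 1689 (9.78%) against 1dS. With the block 13 transcripts passed against 7dS (0.0753%), 10 of them toward X2 (0.0579%) and 3 toward Xins (0.0174%). Were all differences unchanged, a share near 0.05 of the unadjusted p-values would lie under 0.05. The 0.886% against 7dS was far below that. The 0 calls without the block therefore do not show that the differences were unchanged.

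Among list members, 6 changed between 1dS and 30dS, and 3 of these had a symbol. For ACTB (dresden_comp37_c0_seq1) the 4 Xins libraries held 39782, 18893, 63136 and 25056 TPM at 1dS and 4521 to 5773 TPM at 30dS, while X2 held 6980 ± 1888 TPM at 1dS and 4346 ± 1047 TPM at 30dS (SD, n = 4). All Xins libraries at 1dS were above all other libraries. The difference moved by 2.04 on the log2 scale toward X2, and the call was lost as deposited (q = 0.289), with median-of-ratios scaling (q = 0.427), after quantile normalization (q = 0.473) and without replicate 1 of both populations (q = 0.118). For TUBA1C (dresden_comp508_c0_seq1), X2 held 207 ± 83.1 TPM at 1dS and 329 ± 52.2 TPM at 30dS, and Xins held 681 ± 212 and 450 ± 59.3 TPM (SD, n = 4). Its change of 1.28 was lost with median-of-ratios scaling (q = 0.174) and on leaving out X2 replicate 1 or 4 (q = 0.175 and 0.135) or Xins replicate 1, 2 or 3 (q = 0.134, 0.107 and 0.161).

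DNAJC27 held 4.20, 3.0, 2.91 and 3.74 TPM in X2 at 1dS and 7.88 to 11.9 TPM at 30dS. In Xins it held 67.4, 52.6, 55.5 and 57.0 TPM at 1dS and 25.5 to 45.4 TPM at 30dS. The X2 libraries of the times did not overlap, nor did the Xins libraries, and the difference moved by 2.11 toward X2. A transcript of the ER stress list moved by 1.84 in the same direction, with Xins means of 713 TPM at 1dS and 323 TPM at 30dS, but not without replicate 1 or replicate 3 of both populations (q = 0.158 and 0.123). Another of that list moved by -2.04, with X2 means of 146 TPM at 1dS and 36.8 TPM at 30dS. A transcript of the translational initiation list moved by -1.67, with X2 means of 115 and 27.5 TPM, and this call was lost after quantile normalization (q = 0.132). The changes of DNAJC27 and of the second ER stress transcript passed in every alternative run.

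Levels of xbp1 overlapped between the populations at 1dS, at 251 ± 54.6 TPM in X2 and 259 ± 39.7 TPM in Xins (SD, n = 4). At 7dS they were 485 ± 130 and 282 ± 69 TPM, and at 30dS 495 ± 86.8 and 270 ± 71 TPM. The change in its difference from 1dS to 30dS did not pass (q = 0.236). The level of cdk1 in X2 was 7.61 ± 1.2 TPM at 1dS, 2.28 ± 0.818 TPM at 7dS and 3.41 ± 0.726 TPM at 30dS (SD, n = 4), and in Xins its mean was at most 0.199 TPM at each time.

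**Figure D4:**
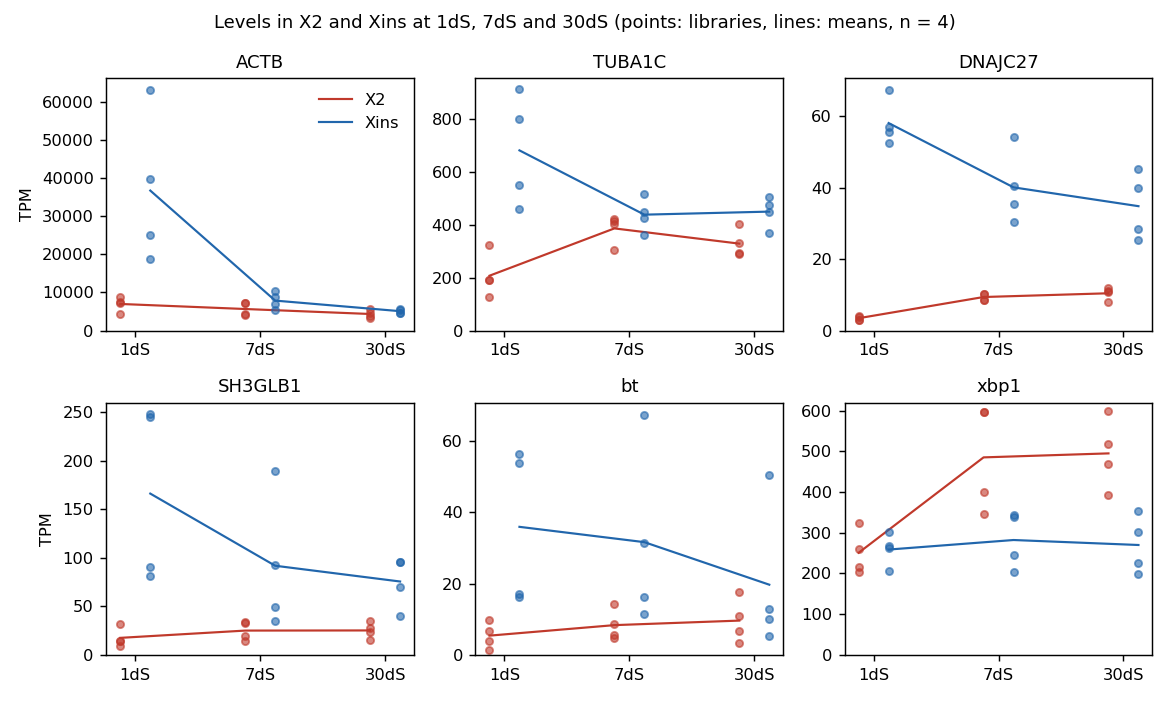
Levels in TPM of ACTB (dresden_comp37_c0_seq1), TUBA1C (dresden_comp508_c0_seq1), DNAJC27, SH3GLB1, bt and xbp1 in X2 (red) and Xins (blue) at 1dS, 7dS and 30dS; points are libraries and lines join means (n = 4). ACTB in Xins starts at 18893 to 63136 TPM at 1dS and stands at 4521 to 5773 TPM at 30dS, whereas xbp1 starts with overlapping ranges and is higher in X2 at 30dS.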

How the data were processed

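RNA from FACS-sorted cells was sequenced by the authors in single-end TruSeq libraries. They filtered out ribosomal reads with Bowtie2, quantified the rest against the Dresden transcriptome using kallisto 0.43.0, and normalized each population by itself in Sleuth. The deposited signal is this normalized TPM and not a count. It keeps no depth, so sequencing depth and counting error are not known here.

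Libraries were here brought to a common total of 1000000, and X2 and Xins values were joined by transcript. Transcripts with a mean of at least 1 over the libraries of a fit were tested with limma 3.58.1 (R 4.3.3, with the data.table package at version 1.17.8) on log2(TPM + 1) with an intensity trend, at q 0.01 between populations and 0.1 between times. A fold is a ratio of mean TPM. A log2 difference includes the pseudocount of 1 and understates changes of low transcripts. An exact two-sided permutation test of 4 against 4 libraries has 70 arrangements and a smallest p of 0.0286, so it was not printed per transcript.

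Replicate numbers were taken to pair X2 and Xins because same-numbered libraries deviated together from their group means at 30dS (r = 0.302 to 0.826, each library correlating best with its own number) and at 7dS (0.643 to 0.837). At 1dS this did not hold (0.0142 to 0.699). The main fit has no block, since the study's methods name none. Alternatives were other scalings, pseudocounts and filters, the replicate block, no trend, a fit of all 24 libraries, and leaving out each library or each replicate number. Only the fit of X2 against Xins at 30dS, with and without the block, was tested on simulated data. Simulated libraries were drawn independently, so deviations shared by same-numbered replicates and changes with time were not simulated. No 2 deposited libraries held the same values.

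Symbols and the 29 lists came from the study's tables. Named were the TRiC and UPR transcripts and cdk1, the 5 largest non-overlapping differences with a symbol in each direction, the 3 largest of each list, the 2 largest without a symbol in each direction, and list members whose difference changed with time. Other list members named were chosen after their values were seen. The comparison, its members and the lists were chosen with earlier results of these data known.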

Additional observations from a re-analysis of the deposited data

Results flagged for a closer look

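In X2 at 30dS, replicate 3 was far from the other 3 libraries for cct5 (217 TPM, the others 499 to 509 TPM) and for MLEC (85.3 TPM, the others 106 to 110 TPM). These were 2 of 118 groups of 4 libraries examined, and chance flags about 1 in 20 groups.

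The X2 minus Xins difference was not the same at 30dS and 1dS for 330 transcripts, by a test of the difference itself. Among list members it had moved by 2.11 for DNAJC27, 2.04 for ACTB, 1.84 for a transcript of the ER stress list and 1.28 for TUBA1C (dresden_comp508_c0_seq1), all toward X2. It had moved by -2.04 for another transcript of the ER stress list and by -1.67 for one of the translational initiation list, both toward Xins.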

How the results depend on the processing

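Of 57 named and tested transcripts, 39 were called. For 13 of these the call held in all 23 alternative settings, and for cdk1 in the 22 in which it was tested, and no called difference changed sign. Depth is not known, so low transcripts carry an error that could not be estimated. The causes of the changes below were not tested.

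With median-of-ratios scaling 2651 transcripts and 93 list members were higher in X2, and after quantile normalization 3941 and 113. The replicate block gave 3248 and 6734 transcripts higher in X2 and Xins, 120 and 28 list members, and 12429 calls at 7dS. It reversed no named difference. At 1dS, where the numbers did not pair the libraries and 5 of the 8 correlated best with their own number, differences from 30dS passed for 3247 transcripts with the block, xbp1 among them (q = 0.0088). Without it that number was 962 with the libraries as deposited, 657 with median-of-ratios scaling and 753 after quantile normalization. Differences from 7dS numbered 4 as deposited, 2 with median-of-ratios scaling, 3 after quantile normalization, 2 without the 10 most abundant transcripts in the total, 1 with a pseudocount of 5, 1 with no filter, 1 with a mean of at least 5, and 13 with the block.

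Leaving out single libraries or replicate numbers gave 630 to 1771 transcripts higher in X2 and 2036 to 4683 higher in Xins, 14 to 63 and 8 to 21 list members, 149 to 347 differences from 1dS and 0 to 2 from 7dS. Uncalled differences that changed sign were those of pdia3 (-0.11 as deposited, and -0.19 to 0.35 on leaving out libraries), calr (0.24 with median-of-ratios scaling, 0.25 after quantile normalization, and -0.46 to 0.19), pdia12 (0.26 and 0.30 in these scalings), ACTB (0.13 with median-of-ratios scaling), dnajc3 (-0.22 to 0.57) and bip-1 (-0.063 to 0.69).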
